A study of Mus musculus with 28 samples.

Results

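Whole testes of NANOS2 knockout mice collected on day 48 after a retinoic acid injection gave 2 of the 28 libraries of the series, and these are described here against the 14 knockout libraries of days 42 to 47 and 50, 2 per day. The day was selected on the measured levels of Myh6, Snhg11 and Klk1b27, which stood high in both of its libraries. Every value from the contrast of day 48 with the 14 others was therefore in view when the day was picked, and is given as a description with no test. The 2 libraries of day 49 were left out of the contrast because they deviate from all the others.

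All 18 knockout libraries come from mice of the NANOS2 KO genotype on a CD1 background. NANOS2 is an RNA-binding protein that male germ cells need to survive, so the testis of the knockout holds somatic cells and no germ cells. All of these mice received WIN 18,446, a blocker of retinoic acid synthesis, for 7 days and then retinoic acid, which in a testis with germ cells sets the seminiferous tubules to the same stage. Testes were taken 42 to 50 days after that injection (days post injection, written as day). The other 10 libraries hold Sertoli cells sorted from testes with germ cells, from RFP heterozygote, Amh-Cre-positive mice treated the same way and taken within the same range of days. There, Amh-Cre, which is active in Sertoli cells, switches on the red reporter used for the sort. These 10 fall into 5 groups of 2 by stage of the seminiferous cycle, from A (XI to XII) through B (I to III), C (IV to VI) and D (VII to VIII) to E (IX to X). For 1 library of group A the label gives a C57BL/6 x Amh-Cre background, and for the other 9 it gives C57BL/6 x 129s4/SvJae. The labels call the knockout libraries Sertoli too, although their source is the testis. They do not say that replicates are separate animals, so p-values measure only the spread between these samples. No whole testis that was untreated or of wild type was analysed here.

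The seminiferous tubule passes through a cycle of stages as its germ cells mature, and Sertoli cells, which line the tubule, change their gene expression with the stage. Between the tubules lie the Leydig cells, which take up or make cholesterol and convert it through a chain of mitochondrial and microsomal enzymes into testosterone. In the mouse they also express several glandular kallikreins, small secreted serine proteases of a large gene family that lies in a cluster on chromosome 7.

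Library totals were 1336742 to 4370138 counts in the knockout testes, with 2381842 and 2425546 on day 48, and 1901743 to 5279746 in the sorted cells. Levels below are in CPM, the count scaled to a common library total, set within each of the 2 tables separately. In the knockout libraries 3 counts correspond to 0.686 to 2.24 CPM. Nanos2 had 0 counts in all 18 knockout libraries and 2 counts over the 10 sorted ones, a level too low to check the genotype. Of 18 spermatid markers, 17 were too low for the filter in the knockout libraries. The spermatid markers summed to 176 to 184 CPM on day 48 and to 155 to 223 CPM in the 14 others, against 2840 to 19900.5 CPM in the sorted cells. The mitochondrial share of counts was 2.80% and 2.68% on day 48, against 2.33 to 3.24% in the 14 others and 0.715% in day 49 replicate 1.

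Myh6 encodes the alpha heavy chain of cardiac myosin (chr14:54941921-54968017, GRCm38). It had 90.8 and 97.3 CPM on day 48, against 8.65 to 62.0 CPM with a median of 18.6 in the 14 others. Both day 48 libraries stood above all of the others, and the nearest was day 50 replicate 1 at 62.0 CPM, while day 50 replicate 2 had 23.7 CPM. Next in order was day 44 replicate 2 at 35.8 CPM. The log2 fold change of day 48 against the 14 others was 2.05 ± 0.33 (SE). Day 49, the following day, had 9.02 and 18.3 CPM, within the range of days 42 to 47.

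Snhg11, a long noncoding RNA that hosts small nucleolar RNAs (chr2:158375713-158386474), had 105.5 and 88.6 CPM on day 48, against 11.1 to 69.3 CPM with a median of 25.5 in the 14 others. Its highest other values were again 69.3 CPM in day 50 replicate 1 and 60.6 CPM in day 44 replicate 2, each well above its partner library of the same day at 45.7 and 28.1 CPM. The log2 fold change was 1.71 ± 0.38 (SE). The same 4 libraries thus stood highest for both genes, the day 48 libraries first.

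Klk1b27, a glandular kallikrein (chr7:44052290-44056712), had 142 and 141 CPM on day 48, against 1.82 to 103 CPM with a median of 9.99 in the 14 others. Day 50 replicate 1 had 103 CPM and day 44 replicate 2 had 82.7 CPM, whereas their partners had 11.3 and 8.82 CPM. Leaving those libraries aside, the highest of the others was 14.5 CPM in day 45 replicate 2. The log2 fold change was 2.68 ± 0.65 (SE). The name of a day 48 peak therefore fits both libraries of that day, but not that day alone: single libraries of days 50 and 44 had much of the same high level. Whether the libraries that share it have anything else in common, such as the time of collection, is not in the labels and was not tested.

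**Figure D1:**
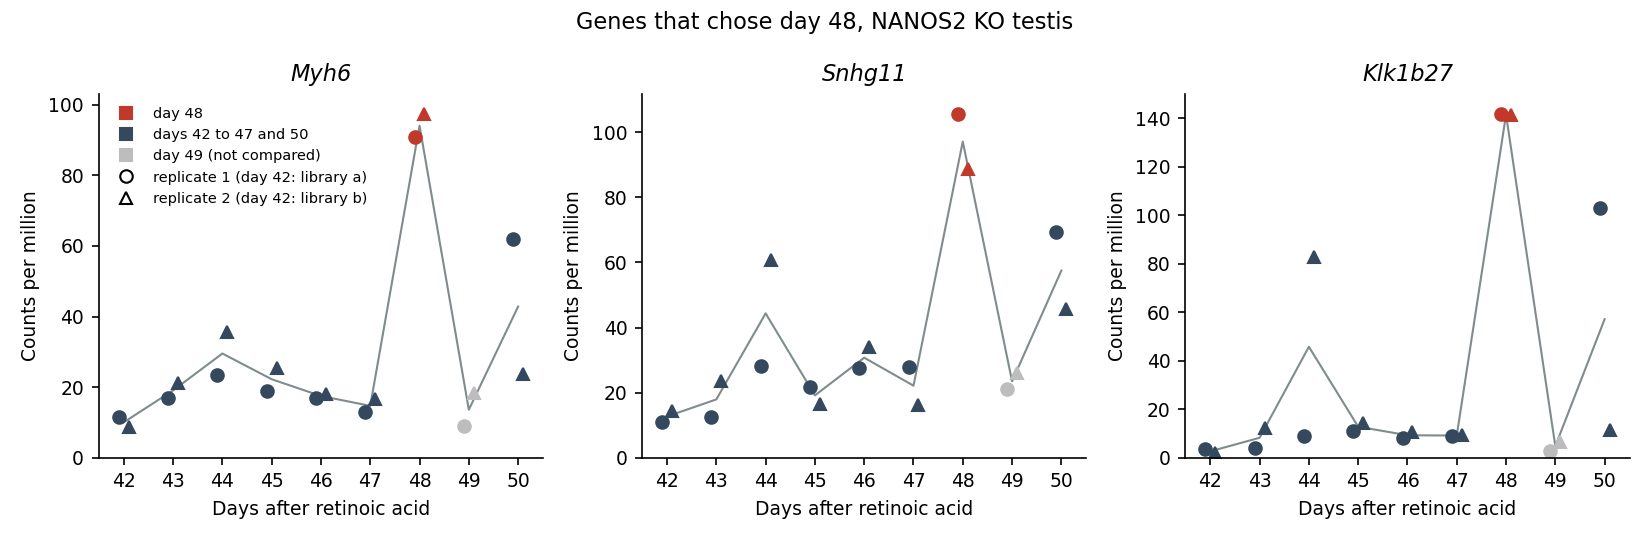
Levels of Myh6, Snhg11 and Klk1b27 in CPM (vertical axes) by day after retinoic acid (horizontal axes) in the 18 NANOS2 KO testis libraries, 1 point per library and a line through the day means. Both day 48 points lie highest in each panel (Myh6 at 90.8 and 97.3 CPM), with day 50 replicate 1 (62.0 CPM) next and its partner library far below (23.7 CPM).

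Several kallikreins of the Klk1 family were high with Klk1b27. Of the 14 members in the list, 7 passed the filter on low counts, and all 7 had a positive log2 fold change, with a median of 2.01, against a median of -0.01 over all 13006 genes tested. A member near 0 elsewhere could pass that filter only through the libraries where it was high, so the count of 7 is a description and supports nothing. Klk1b24 (chr7:44188234-44192455) had 103 and 119.7 CPM on day 48, against 6.60 to 80.0 CPM with a median of 22.6 in the 14 others. Klk1b21 had 92.9 and 113 CPM on day 48, against 7.51 to 99.6 CPM with a median of 15.5 in the others, so that day 50 replicate 1 at 99.6 CPM stood between the day 48 libraries. These 2 had log2 fold changes of 2.01 ± 0.43 and 2.00 ± 0.53 (SE).

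The remaining 4 kallikreins that passed the filter were near the limit of counting in most libraries outside day 48. Klk1b1 had 5.88 and 9.11 CPM on day 48, against 0 to 5.03 CPM with a median of 0 in the 14 others. Klk1, the tissue kallikrein for which the family is named, had 6.30 and 12.01 CPM on day 48, against 0 to 10.7 CPM with a median of 0.634. Klk1b8 and Klk1b22 had 4.14 to 6.21 CPM on day 48, but their highest values were not there: day 50 replicate 1 had 10.0 CPM of Klk1b8 and 11.3 CPM of Klk1b22. The sum over the family was 365 to 411 CPM on day 48, against 15.9 to 326 CPM with a median of 49.5 in the 14 others. In whole testis, more cells of a type and more of an RNA per cell cannot be told apart. The assignment of reads within the family is uncertain, since 32.1% of the 50-base windows of the Klk1b24 transcript, 29.1% of those of Klk1b21 and 14.3% of those of Klk1b27 recur exactly in another member, and the RefSeq record of Klk1b21 (chr7:44004616-44106583) spans that of Klk1b27.

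The promoters of 4 of these kallikreins resemble each other and are shown beside those of Myh6 and Snhg11, the other genes that chose the day. Each line gives the 100 bases before the transcript start in a promoter table from RefSeq (GRCm38.p6), 5′ to 3′ on the gene's strand, with TTTAAA in capitals. For Myh6 and Klk1b21 that start lies inside the gene record whose coordinates are given above. The first 4 are kallikreins, at chr7:44052190-44052289, chr7:44188136-44188235, chr7:44102192-44102291 and chr7:43966651-43966750, all on the plus strand. The last 2 are Myh6, on the minus strand at chr14:54966608-54966707, and Snhg11, on the plus strand at chr2:158375613-158375712.
Klk1b27: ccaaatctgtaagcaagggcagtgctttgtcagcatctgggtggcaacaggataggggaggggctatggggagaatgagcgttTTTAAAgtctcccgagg
Klk1b24: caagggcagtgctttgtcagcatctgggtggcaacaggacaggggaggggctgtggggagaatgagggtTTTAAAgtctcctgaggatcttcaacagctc
Klk1b21: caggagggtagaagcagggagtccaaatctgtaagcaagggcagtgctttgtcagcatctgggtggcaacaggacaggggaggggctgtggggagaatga
Klk1b1: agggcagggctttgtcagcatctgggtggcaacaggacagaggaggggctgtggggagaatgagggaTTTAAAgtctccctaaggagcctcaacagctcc
Myh6: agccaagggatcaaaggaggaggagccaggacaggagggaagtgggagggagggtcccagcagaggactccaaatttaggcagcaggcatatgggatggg
Snhg11: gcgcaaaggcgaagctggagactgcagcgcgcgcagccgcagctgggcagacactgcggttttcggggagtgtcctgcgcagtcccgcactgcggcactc

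The hexamer TTTAAA, which reads the same on both strands, lies in these 100 bases of Klk1b27, Klk1b24 and Klk1b1 and of 3 other family members, and in 4.39% of all 32851 promoters in the table. It is not in the 100 bases of Klk1b21, Myh6 or Snhg11. The start of Klk1b21 in the table lies further upstream relative to the shared sequence: compared without gaps over the 250 bases before the start, Klk1b21 and Klk1b24 were identical at 210 of 215 positions (97.7%) once shifted against each other. In the same comparison, Klk1b24 and Klk1b27 were identical at 63.3% of positions and Klk1b21 and Klk1b27 at 61.4%. Without gaps, an inserted or lost base puts the rest out of register, so these shares can understate the likeness. In the lines above, long stretches of Klk1b27 recur in Klk1b24 and Klk1b21. The motif AAGGTCA, searched on both strands, was in 1.49% of all promoters over 100 bases and in none of these 6, and over 250 bases it was in 4.08% of all promoters, among them those of Klk1 and Klk1b21. TATAAA, on both strands, was in 5.56% of all promoters over 100 bases, among them those of Agt and Meg3, which are described below. A match is a description of letters and says nothing of what binds there.

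Several abundant genes of the steroid pathway of Leydig cells were high on day 48. Cyp17a1, the hydroxylase and lyase that makes androgen precursors, had 2073 and 2128 CPM on day 48, against 462 to 1843 CPM with a median of 908 in the 14 others, a log2 fold change of 1.10 ± 0.28 (SE). Both day 48 libraries were above all 14, and day 50 replicate 1 (1843 CPM) and day 44 replicate 2 (1586 CPM) came next. Cyp11a1, the mitochondrial enzyme that cleaves the side chain of cholesterol, had 2023 and 1902 CPM on day 48, against 609 to 2259 CPM with a median of 1042. Here day 50 replicate 1, at 2259 CPM, was above both day 48 libraries, and its partner had 1173 CPM. Hsd17b3, which makes testosterone from androstenedione, had 227 and 217 CPM on day 48, against 36.3 to 266 CPM with a median of 110.1, and day 50 replicate 1 was again above both. Fdx1, the ferredoxin that passes electrons to mitochondrial cytochromes P450, had 196 and 159 CPM on day 48, against 72.1 to 183 CPM with a median of 116. Ptgds, a prostaglandin D synthase and not an enzyme of steroid synthesis, was listed with these genes. It had 940.3 and 857 CPM on day 48, against 165 to 1029 CPM with a median of 406, and its highest value was in day 44 replicate 2.

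Other genes that define Leydig cells also overlapped the 14 others in level on day 48. Insl3, a peptide hormone of Leydig cells, had 27.7 and 31.9 CPM on day 48, against 6.96 to 38.3 CPM with a median of 13.3 in the 14 others. Star, which brings cholesterol into mitochondria, had 744 and 551 CPM, against 341 to 789 CPM with a median of 529, so that replicate 1 lay near the top of that range and replicate 2 near its median. Lhcgr, the receptor for luteinizing hormone, had 219 and 145 CPM on day 48, against 136 to 248 CPM with a median of 174. Its log2 fold change was 0.03, and without day 48 replicate 1 it was -0.30 and without day 48 replicate 2 it was 0.30. Hsd3b1 had 414 and 478 CPM, against 251 to 449 CPM, and Hsd3b6 had 1143 and 1245 CPM, against 694 to 1227 CPM, both of them dehydrogenases of steroid synthesis. Of 22 Leydig and steroid genes, 20 were tested, 18 had a positive and 2 a negative log2 fold change, the median was 0.24, and Cyp17a1 was the only member with both day 48 libraries above all 14 others.

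The summed level of the 22 Leydig and steroid genes was 9945 to 10218.5 CPM on day 48, against 4894 to 10390 CPM with a median of 6773 in the 14 others. The highest was day 50 replicate 1, day 44 replicate 2 had 8591 CPM, and day 49 had 4995 to 5871 CPM. Enzymes of cholesterol synthesis, 20 genes of which 19 were tested, had a median log2 fold change of 0.26 with 18 positive and 1 negative. None had both day 48 libraries above all 14 others, against 1.46% of all genes tested. Sc5d, a late enzyme of that pathway, had the largest change, with 81.5 and 65.5 CPM on day 48, against 36.4 to 78.0 CPM with a median of 47.6.

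**Figure D2:**
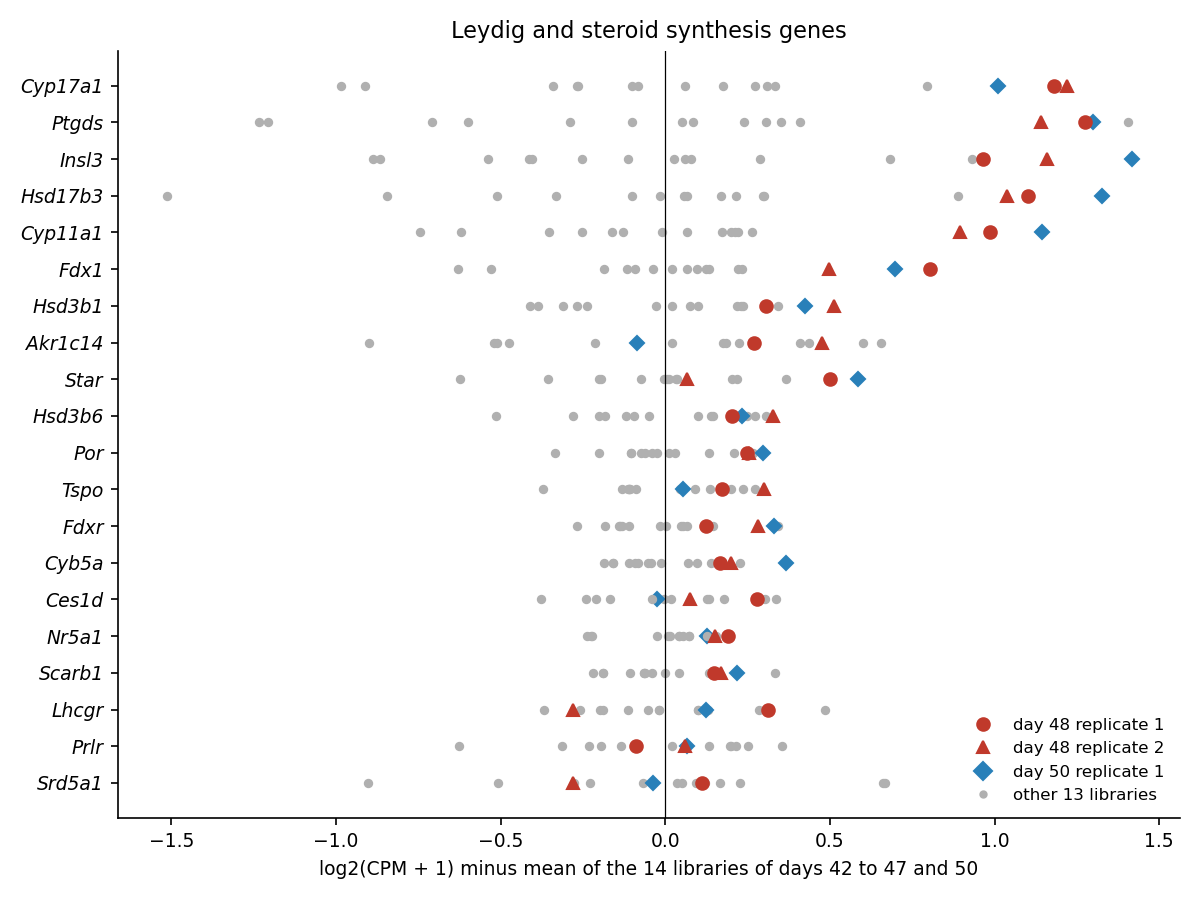
The 20 Leydig and steroid genes tested (rows) as log2(CPM + 1) minus the mean of the 14 others (horizontal axis), 1 point per library, with the day 48 libraries in red, day 50 replicate 1 in blue and the other 13 in grey. Cyp17a1 is the only gene with both red points right of all others (2073 and 2128 CPM against at most 1843 CPM), and the red points of Lhcgr lie on either side of the mean.

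To sort genes, day 48 was set against the 14 others in edgeR's quasi-likelihood fit, with a Benjamini-Hochberg adjusted p under 0.05 as the limit. As a 2-group fit, in which the spread between the 7 other days counts as error, it sorted out 1 gene of 13006, Myh6 (0.00769%), higher, and none lower (0%), with 958 genes at an unadjusted p under 0.05. This number rested on single libraries. It was 79, of which 72 were higher, without day 50 replicate 1, and 0 without either library of day 48, where 535 and 635 genes were at an unadjusted p under 0.05. It was 2 without day 42 library a or without day 44 replicate 2. With day means, where day 48 is set against the mean of the 7 other days and only the spread within days counts as error, 48 genes passed (0.369%), 43 higher (0.331%) and 5 lower (0.0384%). That count was 158 without day 50 replicate 1, 78 without day 44 replicate 2, 72 without day 50 replicate 2, 4 without day 48 replicate 1 and 3 without day 48 replicate 2. Both counts describe the values that chose the day and are not evidence for it.

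Of the 43 higher genes, 24 had both day 48 libraries above all 14 others. Of the 42 with a RefSeq position, 10 lay on chromosome 7 (23.8%), against 911 of 12117 genes tested (7.52%), a difference that was not tested. The kallikreins Klk1, Klk1b1, Klk1b21, Klk1b24 and Klk1b27, of 1 cluster, were 5 of these 10. The log2 fold changes of all 43 higher genes against the day means ran from 0.41 to 4.43, with a median of 0.97. The steroid genes Cyp11a1, Cyp17a1, Fdx1 and Hsd17b3 were also among the 43. So was Ptgds, which is on the Leydig and steroid list but is not a gene of steroid synthesis. It averaged 167 CPM in the sorted Sertoli cells. Agt, the precursor of angiotensin, had 1472 and 1709 CPM on day 48, against 499.8 to 1580.3 CPM with a median of 781 in the 14 others. Ephx1, a microsomal epoxide hydrolase, had 819.6 and 915 CPM, against 262 to 833 CPM with a median of 433. Mgll, which hydrolyses monoacylglycerols, had 90.4 and 99.8 CPM, against 25.0 to 95.0 CPM with a median of 35.1. In these 3 genes day 50 replicate 1 reached the lower of the day 48 values, and the other 13 libraries did not.

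Apoc1, an apolipoprotein, had 233 and 231 CPM on day 48, against 74.7 to 216 CPM with a median of 121 in the 14 others. Mrap, an accessory protein of melanocortin receptors, had 90.4 and 78.7 CPM, against 33.2 to 90.3 CPM with a median of 43.9. Sult1e1, an estrogen sulfotransferase, had 19.8 and 25.3 CPM, against 0.884 to 19.0 CPM with a median of 4.66, and its next highest library was day 44 replicate 2. In all 3 genes, day 50 replicate 1 and day 44 replicate 2 were the highest of the 14 others. Acot1, an acyl-CoA thioesterase, and Thrsp, a protein linked to fat synthesis, had 13.3 to 16.8 and 87.0 to 95.0 CPM on day 48, against 2.96 to 12.3 and 31.8 to 86.0 CPM in the others. Saa3, an acute-phase protein, had 9.67 and 6.21 CPM, against 0 to 6.00 CPM with a median of 0.477.

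For 5 more of the 43, the log2 fold change against the day means was below the median of 0.97. Retsat, retinol saturase, had 264 and 239 CPM on day 48, against 137 to 205 CPM with a median of 182 in the 14 others. Prnp, the prion protein, had 116 and 113 CPM, against 66.2 to 94.6 CPM with a median of 78.2. Gstm5, a glutathione transferase, had 68.1 and 68.4 CPM, against 40.8 to 54.0 CPM with a median of 45.6, and its highest other library was day 42 library a. All of the 14 others lay below day 48 in each of these genes. Rarres1, a gene known for its response to retinoids, had 108 and 129 CPM, against 70.8 to 96.3 CPM, and Cacna1h, a subunit of T-type calcium channels, had 55.5 and 56.8 CPM, against 25.3 to 46.0 CPM. In a list of retinoid genes that does not hold Retsat or Rarres1, 14 were tested and none passed with day means, against 0.369% of all genes tested. In that list Dhrs3, a retinaldehyde reductase, had 60.5 and 62.6 CPM on day 48, against 37.2 to 60.5 CPM. This left day 48 replicate 1 just above the highest of the others.

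**Figure D3:**
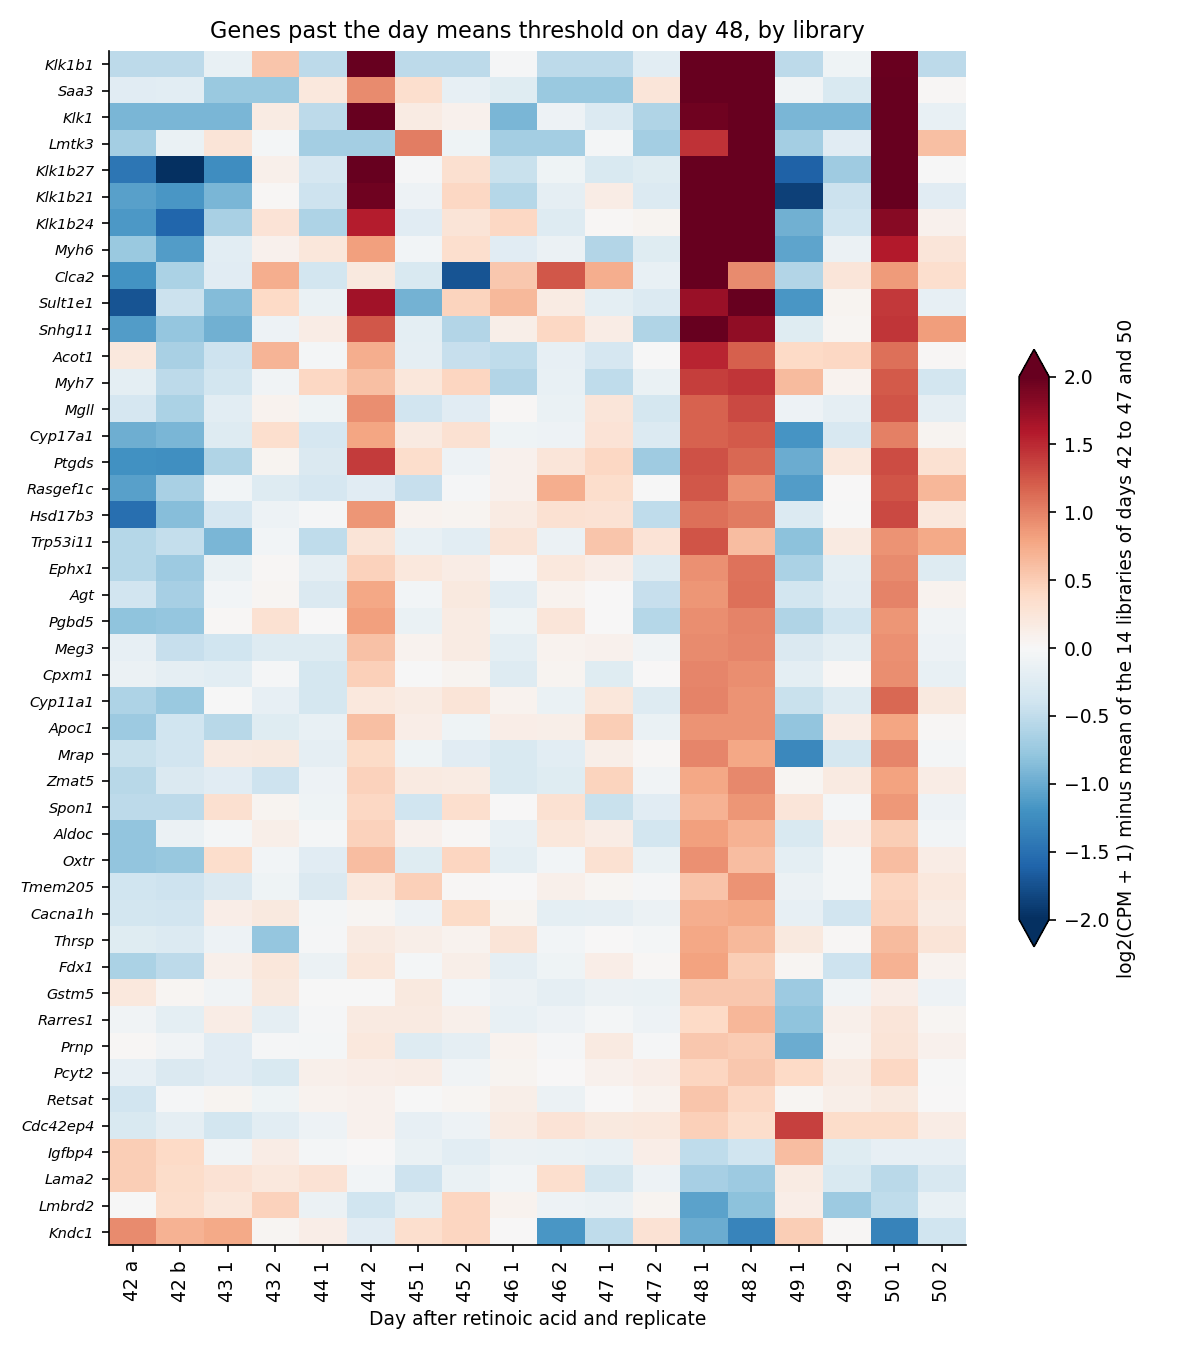
Levels of 45 of the 48 genes that passed with day means (rows, 41 higher and 4 lower on day 48) in the 18 knockout libraries (columns, by day and replicate), as log2(CPM + 1) minus the mean of the 14 others, with colours ending at -2 and 2. The columns of day 48, day 50 replicate 1 and, more weakly, day 44 replicate 2 are red across the higher genes.

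Across libraries, the 43 genes were read as the median log2 difference from the mean of the 14 others. It was 0.97 and 0.95 on day 48, with all 43 genes positive in both. Day 50 replicate 1 had 0.93, also with all 43 positive, while day 50 replicate 2 had 0.03 with 26 positive. Day 44 replicate 2 had 0.52 with 40 positive, while day 44 replicate 1 had -0.13 with 8 positive. The lowest were the libraries of day 42, at -0.56 and -0.52 with 3 and 1 positive. Day 49, which was outside the contrast, had -0.45 and -0.04. In these genes the replicates of day 48 lay close to each other, and those of days 44 and 50 were far apart. The genes were picked as high on day 48, so the likeness of its replicates follows in part from that choice. Day 50 replicate 1 was the next highest library in 36 of the 43 genes and in 72 of the 190 genes with both day 48 libraries above all 14 others.

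Those 190 genes are 1.46% of the genes tested, and 154 genes (1.18%) had both day 48 libraries below all 14 others. The same counts for each other day against its 14 counterparts ranged widely: 282 above and 266 below on day 42, 184 and 179 on day 43, 45 and 57 on day 44, 124 and 143 on day 45, 169 and 157 on day 46, 64 and 87 on day 47, and 80 and 76 on day 50. With day means, 97 genes were higher and 51 lower on day 42, 8 and 8 on day 43, 1 and 0 on day 47, and 20 and 0 on day 50, with none on days 44 to 46, where 381 to 669 genes were at an unadjusted p under 0.05 in the 2-group fit. Day 48 was therefore next after day 42 in genes above all others and with day means, but in genes below all others days 43 and 46 also had more. These days share their libraries with each other as contrast, so the counts are not independent.

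**Figure D4:**
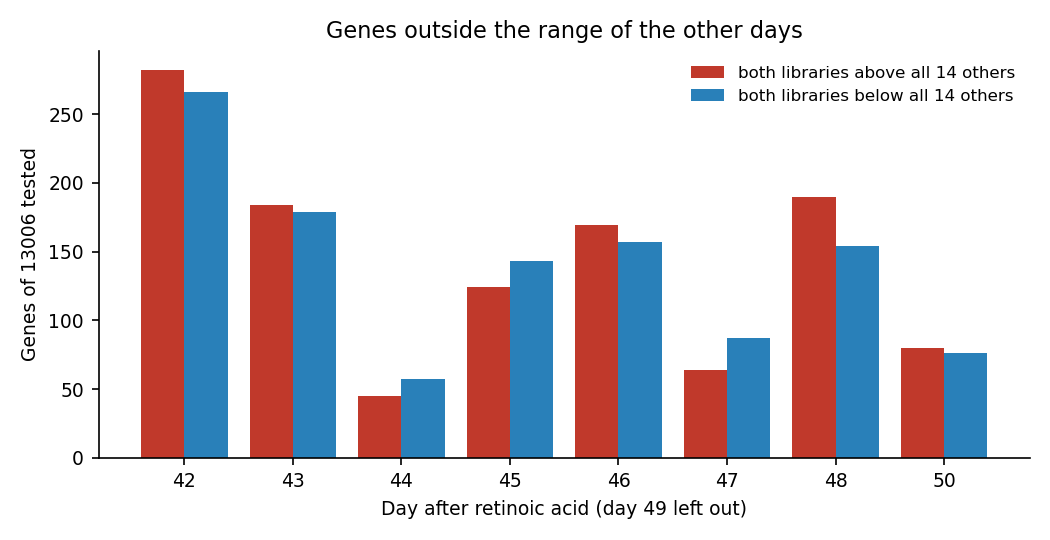
Number of genes with both libraries of a day above all 14 other libraries, or below all 14, by day post injection. Day 48 has 190 above and 154 below, against 282 and 266 on day 42 and 184 and 179 on day 43.

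Myh7, the beta heavy chain of cardiac and slow muscle myosin and the neighbour of Myh6 (chr14:54970684-54994626), was also high. It had 52.1 and 54.3 CPM on day 48, against 12.7 to 46.6 CPM with a median of 17.5 in the 14 others, a log2 fold change of 1.33 ± 0.29 (SE). The transcripts share 22.6% of the 50-base windows of Myh6 and 22.2% of those of Myh7, so reads may have been split between them. No other tested gene of the heart muscle list had both day 48 libraries above all 14 others. Of 32 heart muscle genes, 15 were tested, 7 had a positive and 8 a negative log2 fold change, and the median was -0.03. Tnnt2, a cardiac troponin T, had 28.2 and 41.8 CPM on day 48, against 32.3 to 61.6 CPM in the others. Tnni3, the cardiac troponin I, had 314 and 321 CPM, against 255 to 409 CPM, and Ttn, the giant sarcomere protein titin, had 38.7 and 34.0 CPM, against 16.2 to 94.8 CPM. The whole list summed to 1171 to 1216 CPM on day 48, against 1027 to 1250.0 CPM with a median of 1142, and 3 of the 32 had 0 counts in all 16 libraries.

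Snhg11 had a companion among noncoding RNAs in Meg3, a maternally expressed long RNA of an imprinted locus on chromosome 12. It had 499 and 511 CPM on day 48, against 189 to 490.1 CPM with a median of 245 in the 14 others, and day 50 replicate 1 was again nearest. Its log2 fold change was 0.91 ± 0.20 (SE). Rian and Mirg, which lie downstream in the same locus, had 89.5 and 95.3 CPM of Rian on day 48, against 31.9 to 111 CPM, and 6.73 and 8.29 CPM of Mirg, against 0.756 to 7.33 CPM. Of 20 hosts of small RNAs, 13 were tested, 8 had a positive and 5 a negative log2 fold change, and the median was 0.09, and Snhg11 and Meg3 were the only members with both day 48 libraries above all 14 others.

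The 5 genes that were lower with day means were Igfbp4, Lama2, Lmbrd2, Kndc1 and A730017C20Rik. Lama2, a laminin chain of basement membranes, had 167 and 160.3 CPM on day 48, against 182 to 372 CPM with a median of 255 in the 14 others, and the nearest library was day 50 replicate 1. Igfbp4, a binding protein of insulin-like growth factors, had 116 and 126 CPM, against 144 to 233 CPM with a median of 156. Lmbrd2 had 9.67 and 11.6 CPM, against 14.7 to 29.6 CPM with a median of 20.4. Both day 48 libraries were below all 14 others in these 3 genes. Kndc1 had 18.1 and 14.1 CPM, against 13.99 to 71.6 CPM with a median of 39.2, and here day 50 replicate 1 was lowest. The circadian clock genes Nr1d2 and Per3, which passed no limit, were also below the 14 others, with 51.7 and 50.1 CPM of Nr1d2 on day 48, against 57.7 to 80.4 CPM, and 30.7 CPM of Per3 in both, against 31.7 to 51.7 CPM. Of 16 clock genes, all tested, 5 had a positive and 11 a negative log2 fold change, with a median of -0.07.

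Transcript length and base composition differed between the sets. The 190 genes above all 14 others had a median transcript length of 2473 bases and a median GC content of 52.73%, the 154 genes below them 5571 bases and 47.11%, and all genes tested 3346 bases and 49.87%. Their part in the counts was not tested.

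Summed levels of Sertoli cell and macrophage markers on day 48 lay within the range of the 14 others. All 25 Sertoli cell genes were tested and had a median log2 fold change of -0.03, with 7 positive and 18 negative, and a sum of 19306 to 19574 CPM on day 48, against 18009 to 20440 CPM with a median of 18901. Macrophage markers, 18 of 20 tested, had a median of 0.15 and a sum of 1169 to 1332 CPM, against 964 to 1347 CPM with a median of 1133. Of the macrophage markers tested, 11 had a positive and 7 a negative log2 fold change. None was below all 14 others on day 48, against 1.18% of all genes tested. Cybb, an oxidase subunit of phagocytes that is not on that list, was below all 14 others, at 10.9 and 9.53 CPM against 13.4 to 24.2 CPM. Endothelial markers had a median of 0.04 over 14 of 15, myoid and smooth muscle markers -0.05 over 11 of 13, and stroma and matrix markers -0.12 over 15 of 16. No member of these lists passed with day means, but only 0.369% of all genes tested did, so lists of this size would hold few or none. In the stroma and matrix list, 1 member had both day 48 libraries below all 14 others. Glucocorticoid-responsive genes, 12 of 12 tested, had a median of 0.03. Among them Lcn2, a siderophore-binding protein, had 731 and 624 CPM on day 48, against 78.3 to 2196 CPM with a median of 148, and the 2196 CPM were in day 50 replicate 1, whose partner had 175 CPM.

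**Figure D5:**
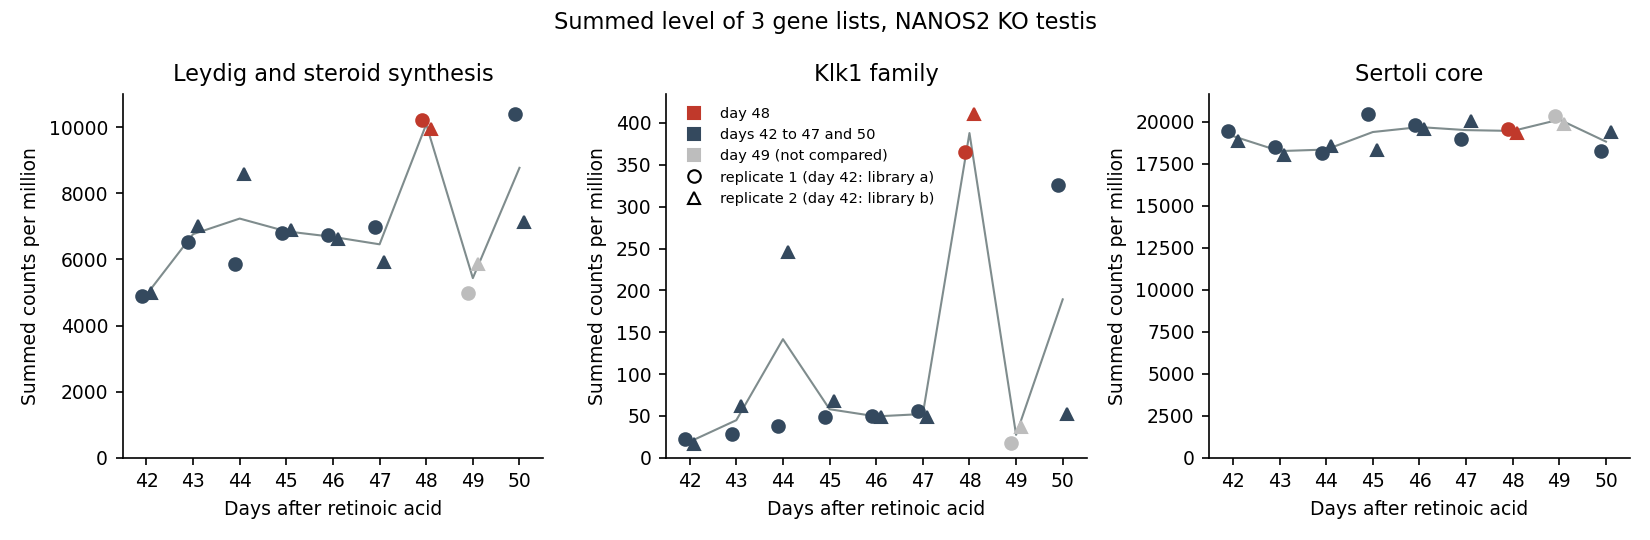
Summed levels in CPM (vertical axes, from 0) of the Leydig and steroid genes, the Klk1 family and the Sertoli genes by day after retinoic acid in the 18 knockout libraries, 1 point per library and a line through the day means. The Klk1 family stands high on day 48 (365 to 411 CPM against a median of 49.5 CPM) and in single libraries of days 50 and 44, and the Sertoli genes lie within the range of the others (19306 to 19574 CPM on day 48).

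The libraries of sorted Sertoli cells were not used to pick the day, and give a separate reading of whether the genes vary with stage in them. They also held germ cell RNA, with spermatid markers summing to 2840 to 19900.5 CPM and spermatocyte markers to 1354 to 3038 CPM. The part of that RNA in the differences between stage groups was not tested. In edgeR's quasi-likelihood F test over the 5 stage groups, 1159 of 14331 genes had an adjusted p under 0.05 (8.09%). This count was 414 without group D replicate 1, 472 without D replicate 2, 624 without E replicate 1 and 619 without E replicate 2. Of the 43 higher genes, 27 could be tested and 5 passed (18.5%), and of the 5 lower genes 1 passed (20%). Those 6 genes together became 3 without B replicate 1, D replicate 1 or D replicate 2, and 11 without C replicate 2 or with DESeq2. Of the 190 genes above all 14 others, 167 could be tested and 11 passed (6.59%), and of the 154 below, 134 could be tested and 5 passed (3.73%). The larger sets thus held shares below that of all genes tested in the sorted cells. The latter also counts genes too low to be tested in the knockout, which these sets cannot hold, so the backgrounds are unlike. Whether any of these shares differs from it was not tested.

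Prnp averaged 14.4 ± 0.85 CPM in group A and 273 ± 89.5 CPM in group D (SD, n = 2 each), with an adjusted p of 0.00118 in edgeR's F test. Cdc42ep4, an effector of the GTPase Cdc42, averaged 36.9 CPM in group A, 424 CPM in C and 412 CPM in D, with an adjusted p of 0.000576 by the same edgeR test. Mgll was lowest in group B at 22.7 CPM and highest in D at 105.3 CPM (edgeR adjusted p = 0.0156). These 3 genes were thus all high around stages VII to VIII, whereas Pgbd5 was lowest in group D at 65.2 CPM and highest in A at 151.5 CPM (edgeR adjusted p = 0.0437). The predicted gene Gm14226 was the fifth that passed. Lmbrd2, lower on day 48, was lowest in group D at 6.94 CPM and highest in A at 21.8 CPM (edgeR adjusted p = 0.04997).

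The genes that chose the day did not pass that test where they could be tested. Myh6 averaged 6.11 to 15.3 CPM over the stage groups (edgeR adjusted p = 0.289), and Snhg11 averaged 0.514 to 3.05 CPM (edgeR adjusted p = 0.50). Klk1b27 was too low for the test, with at most 0.734 CPM in any sorted library. Of the 43 higher genes, 13 (30.2%) averaged under 1 CPM in sorted Sertoli cells, against 8.2% of all genes tested in the knockout, and 16 (37.2%) were too low to be tested there, against 11.6%. Sult1e1 had 0 counts in every sorted library, as did the Leydig hormone Insl3, which is not among the 43. Klk1b8 differed from Klk1b27 in the sorted cells, with 23.9 CPM in group A and 3.76 CPM in group D (edgeR adjusted p = 0.00775), against 4.20 and 4.14 CPM on day 48 in the other table, which was scaled separately.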

How the data were processed

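Gene counts were deposited by the authors in 2 tables, 1 for the 18 NANOS2 KO testis libraries and 1 for the 10 sorted Sertoli libraries. Per the submitters' processing notes, Bowtie, TopHat and Cufflinks were used with mm10. For versions, the counting tool and the use of strand, nothing is stated in the labels or headers. The deposited counts were used as they are, and the FPKM tables were not used. Both columns of day 42 carry the same name, so they are called library a and library b. Among the symbols, 27 had been turned into dates, and 72.9% of symbols matched a RefSeq record.

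CPM are counts over the library total times a TMM factor (0.989 to 1.01 in the 16 libraries fitted). Fits used edgeR 4.0.16 in R 4.3.3 (filterByExpr, quasi-likelihood, Benjamini-Hochberg over all genes tested), with limma 3.58.1 and DESeq2 1.42.0 as alternatives. Fold changes are those of the 2-group fit unless day means are named. The fits were tested on simulated data with genes raised in a group. Those data held no further spread between days or groups and no deviant library, so they cannot show how the fits behave with such features.

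The day, its genes and the gene lists were chosen with earlier results of these data known. The rule for named genes took Myh6, Snhg11, Klk1b27, members of the Klk1 family and genes past the limit in the 2-group fit. Since only Myh6 passed, genes past the limit with day means, list members and genes with both day 48 libraries outside the range of the 14 others were added after seeing the data. Single-library values at 0 are below 3 counts, and limits of this kind cover counting error only.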

Additional observations from a re-analysis of the deposited data

How the results depend on the processing

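The 2-group count of 1 gene was 1 with RLE scaling and with day 49 kept, 6 with no filter, 5 with DESeq2 (all higher, Myh6 not among them), 0 with limma-trend (967 genes at an unadjusted p under 0.05), 48 with 8 day means and, chosen after seeing the data, 85 with day 50 left out. Leaving out 1 library at a time gave 0 to 79. The count of list members was 1, and 5 with no filter, 0 with limma-trend, 15 with 8 day means, 19 with day 50 left out, and 0 to 19 without 1 library. The day-means count of 48 was 217 with no filter, 22 with DESeq2 (21 of them shared), 36 with limma-trend, 34 with day 49 kept, 175 with day 50 left out, and 3 to 158 without 1 library. The stage count of 1159 was 2764 with no filter, 2000 with DESeq2, and 414 to 1557 without 1 library. The causes of these shifts were not tested, and leaving out a library also lowers the number of samples. Over the 26 settings of the 2-group count, the log2 fold change was 1.91 to 2.31 for Myh6 and 1.57 to 1.99 for Snhg11. It was 2.46 to 3.82 for Klk1b27 and 0.98 to 1.21 for Cyp17a1. With day means and day 50 left out, it lay outside these ranges, at 2.40, 2.13, 3.84 and 1.26 in the same order. Of the log2 fold changes of 175 genes under the alternatives, 27 moved by more than the spread between the 14 others and 4340 did not. Leaving out day 48 replicate 1 gave 8 of the 27, and leaving out day 48 replicate 2 gave 11. The rest were 6 with 8 day means and 2 with DESeq2, and no other setting moved any. Most settings left out only 1 library, so the 4340 are not evidence of stability.

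Deviations of same-numbered libraries correlated at -0.274 to 0.13 over 28 pairs of knockout days, where 1 pair was over 0.1. Over 10 pairs of sorted groups they correlated at -0.111 to 0.43 (median 0.197), 6 pairs were over 0.1 and 4 of 5 groups lay nearer to their own number, a hint from the data of a pairing that the labels do not state. With the replicate number as a block and day 42 left out, the 2-group count and the list count were both 1. With the block, the stage count was 1671, and 8 of the day 48 genes that passed with day means passed the stage test, in place of 6. That number was 14 with no filter.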
